A study of Mus musculus with 8 samples.

Results

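The regions described here are 209 Ezh2 binding sites of mouse embryonic stem cells at which G9a was also called, both in wild-type cells and in knockout cells given G9a back. They were chosen by the overlap of peak calls alone: each is a peak of wild-type Ezh2 library 1 on chromosomes 1 to 19 that shares at least 1 bp with a peak of wild-type Ezh2 library 0, of wild-type G9a and of rescue G9a. Library 1 held 11593 peaks on these chromosomes, and 2596 of them (22.4%) overlapped library 0 and are called reproducible sites. Of the reproducible sites, 423 (16.3%) held a wild-type G9a peak and 527 (20.3%) a rescue G9a peak. The 209 sites held both, 214 held wild-type G9a only, 318 held rescue G9a only and 1855 held neither. These counts follow from the choice and are not results.

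Ezh2 is the enzyme of the Polycomb complex PRC2 and places methyl groups on histone H3K27, a mark found over silent developmental genes in embryonic stem cells. PRC2 often covers broad domains around the start sites of such genes. G9a works as a pair with GLP and methylates H3K9, another mark of repressed chromatin.

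The series is ChIP-seq of the TT2 line, which the labels trace to a C57BL/6 female and a CBA male. Ezh2 was profiled in wild-type TT2 cells (libraries 0 and 1) and in knockout TT2 cells without either enzyme (G9a-/-GLP-/-, 1 library). G9a was profiled in wild-type TT2 cells (1 library) and in G9a-/-GLP-/- cells rescued with wild-type G9a (1 library), which by their label still lacked GLP. The labels do not say whether the knockout and rescue cells are single clones, and no G9a library from unrescued knockout cells was analysed here, which leaves the background of G9a calling unmeasured. Cells for G9a were crosslinked with 2 mM DSG before formaldehyde and cells for Ezh2 were not. Per the series' design text, the pooled wild-type inputs were the control for both proteins, so their lists are not independent of each other. Neither that text nor the labels state which control served for the knockout and rescue lists, although a knockout input is among the samples, and the knockout shares and rescue calls below depend on it. The deposited lists give positions on mm9 and a score per peak from the authors' peak caller, which grows as the peak's p falls. They hold no reads, and the depth behind them is not known. Scores rank peaks within a list. With 1 library in every group except wild-type Ezh2, no difference between conditions could be tested. The exact binomial 95% intervals given below cover the counting of sites or peaks only, and neighbouring sites are not independent. No gene was assigned to a peak, because no annotation of mm9 was used here.

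The 209 sites were mostly broad Ezh2 sites. Their library 1 peaks had a median width of 2883 bp, with a middle range from 2063 to 4372 bp and a widest peak of 90112 bp. Sites with wild-type G9a only had a median of 2609 bp, sites with rescue G9a only 2616 bp, and sites with neither 2190 bp. A wider peak has more room to overlap another list, so this order is partly set by the choice. Only 10 of the 209 sites (4.79%) were narrower than 1 kb, against 234 of the 1855 sites with neither list (12.6%). The median library 1 score was 888.26, and the median of the highest library 0 score in the site was 149.05. Of the 209 sites, 33 had library 1 scores of 3100 or more, a value that 322 library 1 peaks carried exactly. The sites lay apart from each other: 11 of the 209 had another of them within 10 kb.

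Most sites held a single G9a peak of each list. The wild-type list placed 267 peak overlaps in the 209 sites, with 159 sites holding 1 peak, 43 holding 2 and 7 holding 3 or more. The rescue list placed 290, with 152, 38 and 19 sites in the same order. In each list, 1 G9a peak lay in more than 1 of the sites. The G9a peaks were much narrower than the Ezh2 sites, with median widths of 705 bp for wild-type and 660 bp for rescue peaks. They covered a median of 26.2% of the site for the wild-type list and 24.6% for the rescue list. In the wild type 156 of the 267 (58.4%) lay wholly inside the Ezh2 site, 108 (40.4%) ran across 1 of its edges and 3 covered it whole. In the rescue 171 of the 290 (59.0%) lay inside, 116 (40.0%) ran across 1 edge and 3 covered the site whole.

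Wild-type and rescue G9a were mostly called at the same place within the Ezh2 site. The choice asks only that both lie somewhere in it. The peaks of each list covered a median of 26.2% (wild type) and 24.6% (rescue) of the site, so some overlap would arise wherever they lay. Neither that overlap nor the overlap of the G9a lists outside these sites was computed. The share below is thus not shown to be particular to these sites. In 169 of the 209 sites (80.9%; interval 74.9 to 86.0) a wild-type peak overlapped a rescue peak inside the site, and in 155 sites (74.2%) the strongest peaks of the lists overlapped each other. The middles of overlapping peaks were a median of 171 bp apart, with 305 bp at the upper end of the middle range. In the other 40 sites the nearest wild-type and rescue peaks were a median of 903 bp apart, and at most 5535 bp. Among sites whose G9a peaks scored at least 50 in both lists, 98.4% of 62 shared a place.

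At the 10 sites ranked first by Ezh2, the strongest G9a peak was centred toward or beyond the edge of the Ezh2 site in 9 cases for the wild type and in 8 for the rescue. Ranking used the mean rank of score in both wild-type libraries, with ties broken by position and chromosomes sorted as text. All 10 sites scored 3100.0 in library 1, a score they shared with others of the 33 sites at 3100 or more. Their order in library 1 was therefore that of position, and the choice of these 10 rests partly on it. The site chr9:62988717-62997075, with 3100.0 in both libraries, was not among them. The first, chr11:84327169-84344787, spanned 17619 bp with Ezh2 scores of 3100.0 in library 1, 3100.0 in library 0 and 2986.07 in the knockout. Its wild-type G9a peak (score 40.55) was centred 730.5 bp inside 1 edge and its rescue peak (20.54) 905 bp inside the same edge, where the peaks overlapped. The rescue call at this first-ranked Ezh2 site was near the lowest score of its list, and the wild-type call was close to the median over the 209 sites. The second, chr11:98179559-98192891, was the exception: Ezh2 scores were 3100.0, 2867.23 and 1974.35 in library 1, library 0 and the knockout, and the strongest wild-type (214.16) and rescue (490.49) G9a peaks lay 5948.5 and 5303.5 bp inside the edge, near its middle. At chr11:92958235-92963324 the Ezh2 scores were 3100.0, 982.64 and 821.08, and the wild-type G9a peak (137.14) was centred 671.5 bp inside 1 edge and the overlapping rescue peak (645.82) 78 bp beyond it. At chr18:77091518-77100088 the Ezh2 scores were 3100.0, 1647.73 and 771.15, and wild-type and rescue G9a peaks of 135.55 and 226.45 were centred 435 and 190 bp inside 1 edge. At the second site G9a was central, and at the other 3 it lay toward 1 edge in both lists.

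The same ranking held 6 further sites. At chr5:33771182-33780011 the strongest wild-type G9a peak (395.81) was centred 939 bp beyond the edge and only its end reached into the site. The rescue peak of the site (33.01) was centred 1180.5 bp inside that edge. Further rescue peaks lay just beyond the edge, within the span of the strong wild-type peak, and were not counted because they missed the site. At chr1:165237662-165246436 the wild-type peak (107.3) was centred 204 bp inside 1 edge, and the stronger of 2 rescue peaks (25.65) lay 828.5 bp inside the opposite edge. At chr11:23972799-23984966 the wild-type peak (26.56) lay 281 bp inside 1 edge, and the strongest of 3 rescue peaks (30.65) lay 729 bp inside the other. The lists did not share a place at chr1:189428616-189435059 (wild-type score 60.31, rescue score 21.61) or at chr18:47524809-47530905 (28.01 and 51.56). At chr18:64500278-64506051 overlapping wild-type (22.1) and rescue (29.86) peaks lay about midway between the middle and the edge. All 10 sites were in the knockout Ezh2 list. Each was wider than 4372 bp, and 98.6% of the 279 sites of such width with neither G9a list were in it too. Of the 10, 8 had overlapping G9a peaks of both lists.

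**Figure D1:**
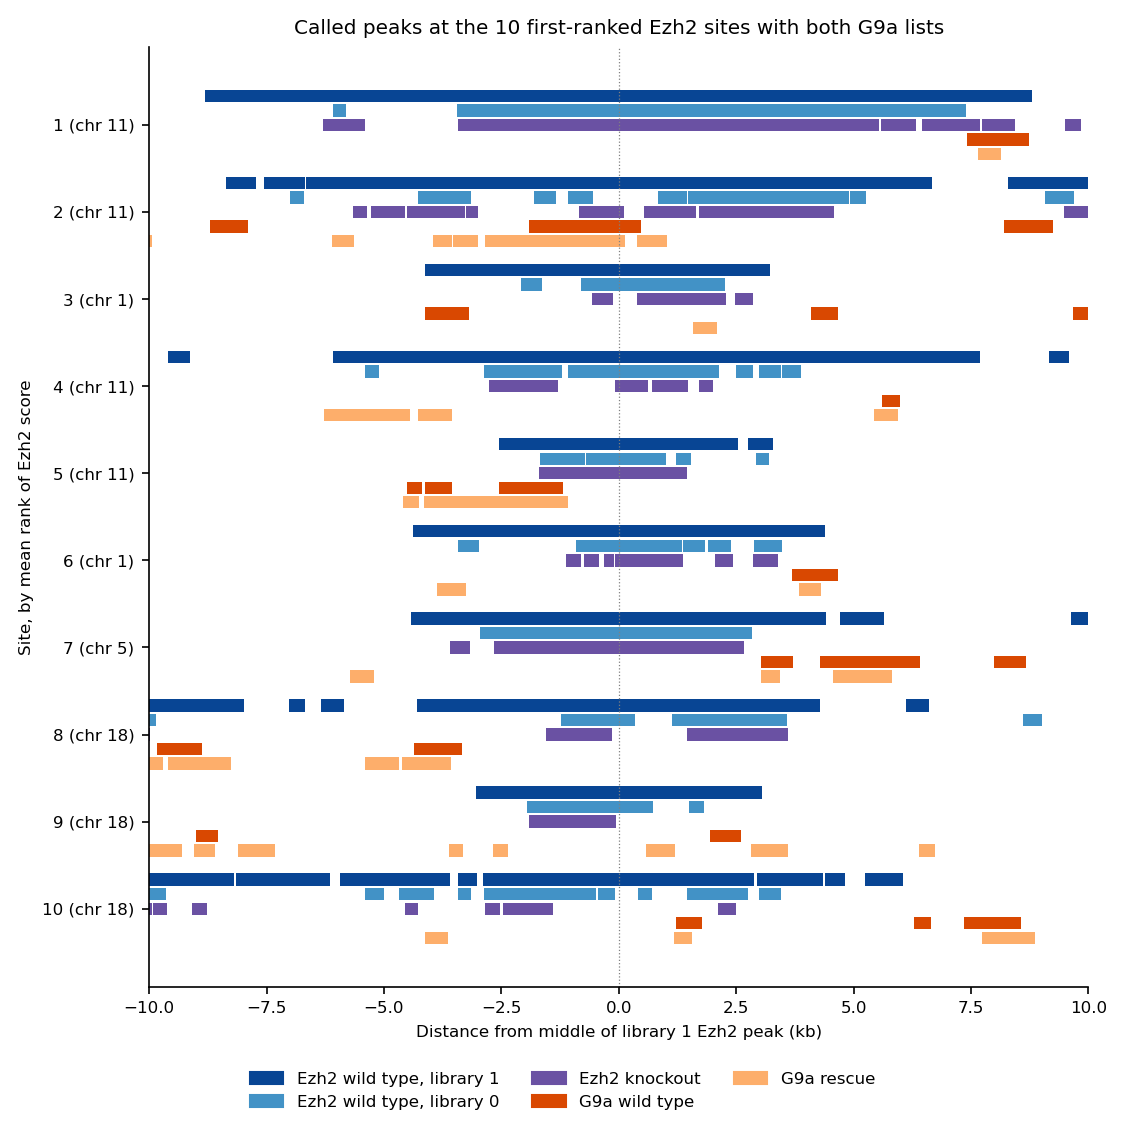
Called peaks within 10 kb of the middle of each of the 10 first-ranked sites, by distance in kb (x axis) and site (y axis); each bar is a peak, coloured by list, neighbouring sites included. The strongest wild-type G9a peak was centred in the outer 50% of the site in 7 of the 10, beyond the edge in 2 and in the central 50% in 1.

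Over all 209 sites, G9a peaks were centred more often in the outer than in the central part of the Ezh2 site, while Ezh2 peaks of the other libraries were centred mostly in the central part. The site was divided into its central 50%, called the inner zone, and the 25% at each end, called together the outer zone, so that both zones have the same length. Of the wild-type G9a peaks, 96 were centred in the inner zone, 131 in the outer zone and 40 beyond the edge. Of those centred inside the site, 42.3% (interval 35.8 to 49.0) were in the inner zone. For rescue G9a the counts were 101, 148 and 41, and the inner share was 40.6% (34.4 to 46.9). For library 0 Ezh2 peaks the counts were 321, 162 and 0, an inner share of 66.5% (62.0 to 70.7), and for knockout Ezh2 peaks they were 254, 147 and 1, a share of 63.3% (58.4 to 68.1). Each site is itself an Ezh2 peak and holds a library 0 peak by choice, so the central position of Ezh2 is partly set by how sites were defined. A peak in a wide library 1 peak can be one of many, and the 90112 bp site alone held 53 library 0 and 57 knockout peaks. When the requirement of a library 0 peak was dropped, the inner share of wild-type G9a was 53.6% over 718 sites (interval 49.3 to 57.7). This value was above 50%, with an interval that held 50%. The outer position of wild-type G9a was thus seen at the 209 sites and not over all library 1 peaks with both G9a lists. Those 718 sites were also narrower, with a median width of 960 bp against 2883 bp, and the part of width was not tested.

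The outward position was clearest in the widest sites. In the widest of 4 groups of sites of nearly equal number (53 sites, from 4372 bp upward), 17 wild-type G9a peaks were centred in the inner zone and 41 in the outer zone, an inner share of 29.3% (18.1 to 42.7). In the next 3 groups, from wide to narrow, the inner share was 48.4%, 42.6% and 50.0%, with intervals that all held 50% and overlapped that of the widest group. Rescue G9a gave 37.6%, 44.4%, 42.4% and 38.1% in the same order from wide to narrow. The rescue list thus showed no such order by width, and the difference between the lists was not tested. The strongest wild-type G9a peak of a site was centred a median of 477 bp inside the nearest edge and the strongest rescue peak 445 bp.

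Counted from the edge, G9a and Ezh2 peaks were spaced differently. Among the 97 sites at least 3 kb wide, the 250 bp steps with the most wild-type G9a middles were from 500 to 250 bp inside the edge (20 peaks, 20.6 per 100 sites) and from 750 to 500 bp inside it (18 peaks). The step from 1250 to 1000 bp inside held 17, and the last 250 bp of the site held 7. From 1500 bp inside up to the edge, the steps held 16, 10, 16, 19, 17 and 13 rescue G9a middles. Within the 250 bp just outside the edge there were 10 wild-type and 11 rescue G9a middles, against 2 of library 0 Ezh2 and 0 of knockout Ezh2. Library 0 Ezh2 middles were more numerous farther inside, from 3 in the last 250 bp of the site to 36 in the step from 1500 to 1250 bp inside it. Most of these steps hold under 20 peaks, so the outline of the G9a curve is coarse.

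**Figure D2:**
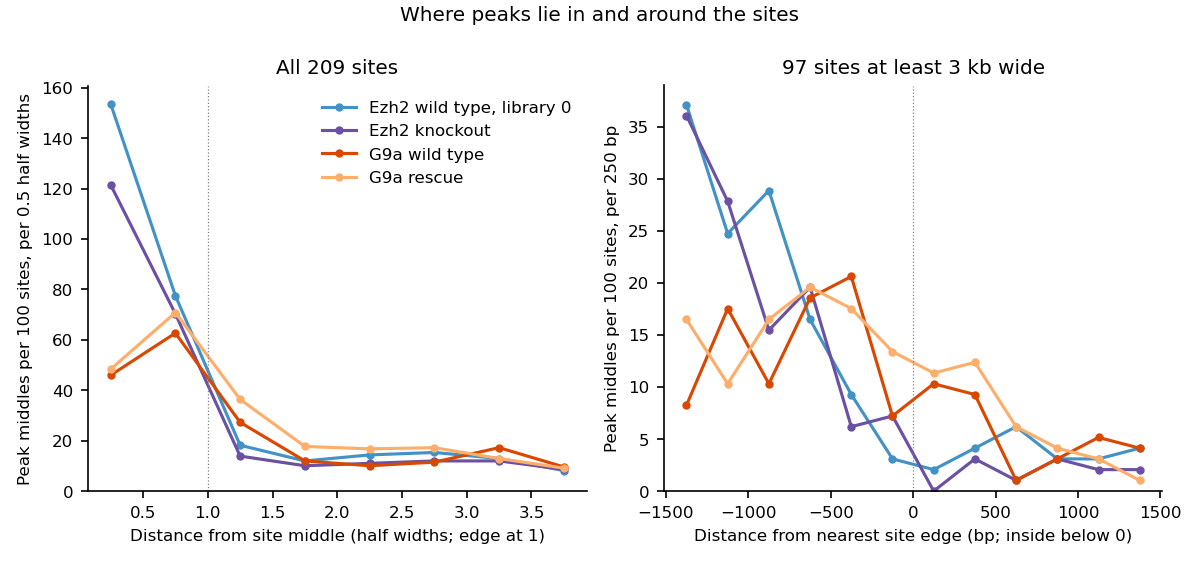
Peak middles per 100 sites against distance from the site middle, scaled so that the edge is at 1 (left, all 209 sites) and against distance in bp from the nearest edge (right, 97 sites at least 3 kb wide); lines are lists. Inside the site G9a was denser toward the edge (wild type 45.9 then 62.7 per 100 sites) and Ezh2 denser toward the middle (library 0 154 then 77.5).

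The 209 sites hold G9a by choice, so the density of G9a inside them has no meaning against their surroundings. Over all 2596 reproducible sites, where no G9a was asked for, wild-type G9a middles numbered 7.51 per 100 sites in the inner zone and 8.90 in the outer zone. In the zones of the same length beyond the edge they numbered 5.74 to 7.05. Rescue G9a numbered 8.55 in the inner zone, 13.8 in the outer zone and 9.52 just beyond the edge, falling to 6.43 in the farthest zone. Of the peaks centred inside the site, the inner share was 45.8% (interval 41.0 to 50.6) for the wild type, from 195 inner and 231 outer peaks, and 38.3% (34.4 to 42.4) for the rescue, from 222 and 357. The interval held 50% for wild-type G9a and not for rescue G9a.

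Ezh2 of library 0 and of the knockout was called less often on the bases under G9a than on the rest of the same site. In 206 of the 209 sites the wild-type G9a peaks left part of the site free. There, library 0 Ezh2 peaks covered on average 27.2% of the bases under wild-type G9a and 40.8% of the other bases, and coverage was lower under G9a in 128 sites and higher in 78. Under rescue G9a it was 25.4% against 42.0%, lower in 144 sites and higher in 62. In the sites of the knockout list, knockout Ezh2 peaks covered 22.6% of the bases under wild-type G9a and 36.0% of the others, lower in 99 of 141 sites. Of the single peaks, 145 of the 267 wild-type G9a peaks (54.3%; 48.1 to 60.4) touched a library 0 Ezh2 peak and 85 (31.8%) a knockout Ezh2 peak.

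G9a lies toward the edge, where fewer Ezh2 peaks of these libraries are centred, so the bases under G9a were also set against their mirror image, the bases at the same distance from the middle on the opposite side. The gap was smaller and kept its direction on average. Library 0 peaks covered 25.6% of the bases under wild-type G9a and 31.0% of the mirror bases, lower under G9a in 94 sites, higher in 66 and equal in 45. For rescue G9a the shares were 23.5% and 32.7%, lower in 90, higher in 65 and equal in 51. For knockout Ezh2 they were 22.4% and 28.6% with wild-type G9a (lower in 60, higher in 41, equal in 40) and 23.1% and 27.8% with rescue G9a (60, 42 and 38). The median difference per site was 0 in all 4 comparisons, so the lower means rest on a part of the sites.

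**Figure D3:**
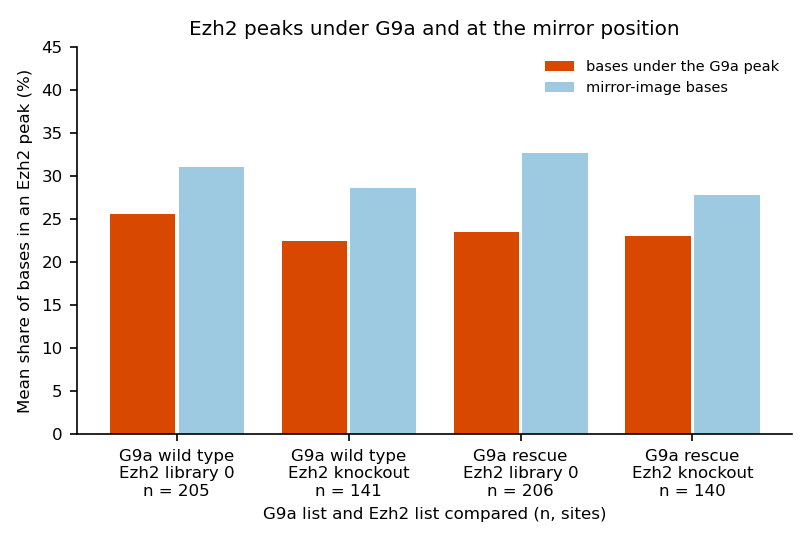
Mean share of bases lying in an Ezh2 peak (y axis, %), for bases under G9a and for the mirror-image bases of the same sites, by G9a and Ezh2 list; n is the number of sites, and no error bars are drawn. All 4 means were lower under G9a, by margins from 27.8% against 23.1% to 32.7% against 23.5%.

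The strongest G9a peak of most of the 209 sites scored above the middle of its list, more so for the rescue, and a minority scored high in both. The highest wild-type G9a score per site had a median of 40.83 and a middle range from 26.56 to 79.35, and the highest rescue score had a median of 45.36 and a range from 28.63 to 147.68; both lists begin at 20. The medians over all peaks on chromosomes 1 to 19 were 31.7 and 26.86, and the median site's strongest peak had 35.6% of the wild-type list and 16.5% of the rescue list at or above its score. The strongest of several peaks in a site is set here against single peaks. At sites with 1 list only, the median was 26.79 for wild-type G9a and 26.75 for rescue G9a. The strongest wild-type G9a peak was among the top 10% of its list at 40 of the 209 sites (19.1%), against 3 of the 214 sites with wild-type G9a only. For rescue G9a it was 90 of the 209 (43.1%), against 27 of 318 (8.49%). At 35 sites both were in the top 10% and at 114 neither was. Holding both lists is part of the choice of sites, so this contrast is a description with no test.

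The strongest G9a peaks were at sites over the whole range of Ezh2 scores, and some of them were centred outside the Ezh2 peak. The highest wild-type G9a score, 523.46, was at chr17:80111545-80115280, with an Ezh2 score of 1643.94 in library 1; the peak was centred 883 bp beyond the Ezh2 edge, and the rescue score was 255.72. At chr10:42291790-42296178 the wild-type score was 458.51 and the rescue score 294.49, with both peaks near the middle of the site. At chr5:137506833-137508707 the scores were 449.28 and 732.52, and Ezh2 was weak in library 0 (45.66) and in the knockout (48.41). The highest rescue score, 949.27 with 330.8 in the wild type, was at chr17:4626227-4626581, the narrowest of the 209 sites at 355 bp, with an Ezh2 score of 42.75 in library 1. At chr11:35610371-35612801 the wild-type and rescue scores were 347.62 and 714.77. At chr6:127716877-127719383 the lists were far apart, with a wild-type score of 26.78 and a rescue score of 731.16. At that site the wild-type call was weak, the rescue call was strong, and knockout Ezh2 was not called. Chromosome 6 held more rescue than wild-type G9a peaks (7425 against 3391), and the part of this in the scores was not tested.

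Across the 209 sites the G9a scores of the lists went together and neither went with Ezh2. Spearman's rho between the highest wild-type and rescue G9a scores was 0.534. Between library 1 Ezh2 score and G9a score it was -0.0598 for the wild type and -0.0382 for the rescue, and between site width and G9a score it was 0.00445 and -0.0218. Library 1 Ezh2 score rose with library 0 score (0.782) and with width (0.839). These values describe 209 sites of the same libraries and carry no test.

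**Figure D4:**
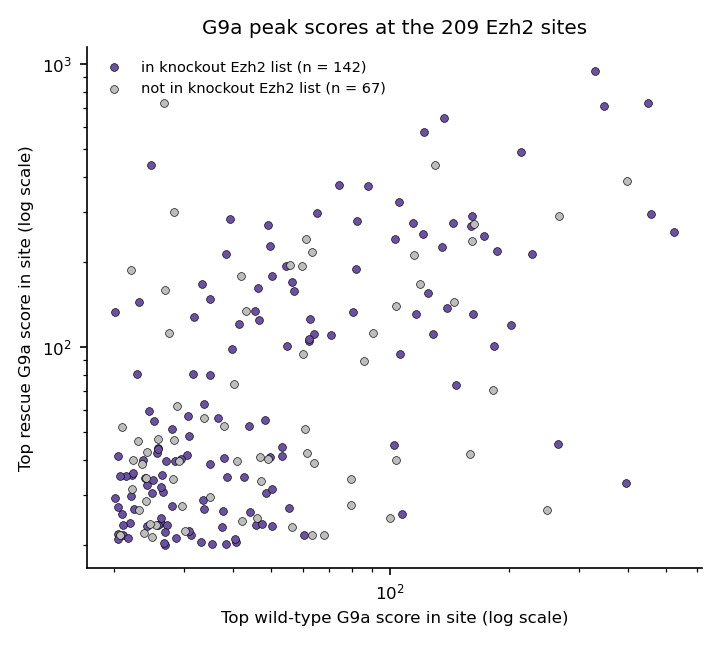
Highest rescue G9a score (y axis) against highest wild-type G9a score (x axis) at each of the 209 sites, both on log scales; colour marks the 142 sites in the knockout Ezh2 list and the 67 not in it. High scores tend to be high in both lists (Spearman's rho 0.534), and both colours lie over the whole range.

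Ezh2 was called in the knockout at most of the 209 sites. The knockout Ezh2 list was not used to choose them, and 142 (67.9%; interval 61.2 to 74.2) overlapped a knockout peak, against 63.4% of all 2596 reproducible sites. With wild-type G9a only the share was 61.2%, with rescue G9a only 65.7% and with neither list 62.7%. At the 142 sites, knockout peaks covered a median of 0.791 times as many bases as library 0 peaks, with a middle range from 0.574 to 1.08. The share depends on the Ezh2 list that defines a site: without the requirement of library 0 it was 25.2% of 718 sites, and with library 0 peaks taken as the sites it was 50.5% of 103.

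Against sites of equal width, the share was lower with G9a than without. Wide Ezh2 sites are found in the knockout list far more often than narrow ones, and the 209 are wide. Reweighted to the widths of the 208 sites for which a site of similar width existed, the sites with neither G9a list were in the knockout list in 74.3% of cases, against 67.8% of the 208, a difference of -6.53 percentage points. The interval of the members' share alone would place this difference between -13.3 and -0.232. Under 11 other settings it ran from -7.18 to -2.47 and was below 0 in each, and the same interval held 0 in all but 1 of them, the one matched to the site nearest in width. Sites with wild-type G9a only had a difference of -7.53 points and sites with rescue G9a only -4.06 points, so the lower share was not shown to belong to sites with both lists.

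The gap between the 209 sites and those without G9a was not the same at every width. In the narrowest group, 44.2% of 52 sites with both G9a lists were in the knockout list, against 38.2% of 829 sites with neither. In the next group it was 61.5% of 52 against 73.0% of 374. From 2883 to 4372 bp it was 67.3% of 52 (interval 52.9 to 79.7) against 85.5% of 345 (81.3 to 89.1), while sites with wild-type G9a only stood at 82.6% of 46 and those with rescue G9a only at 86.5% of 74. In the widest group 52 of 53 sites (98.1%) were in the knockout list, against 98.6% of 279. These width groups were cut from the 209 sites themselves, and the differences between groups were not tested.

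**Figure D5:**
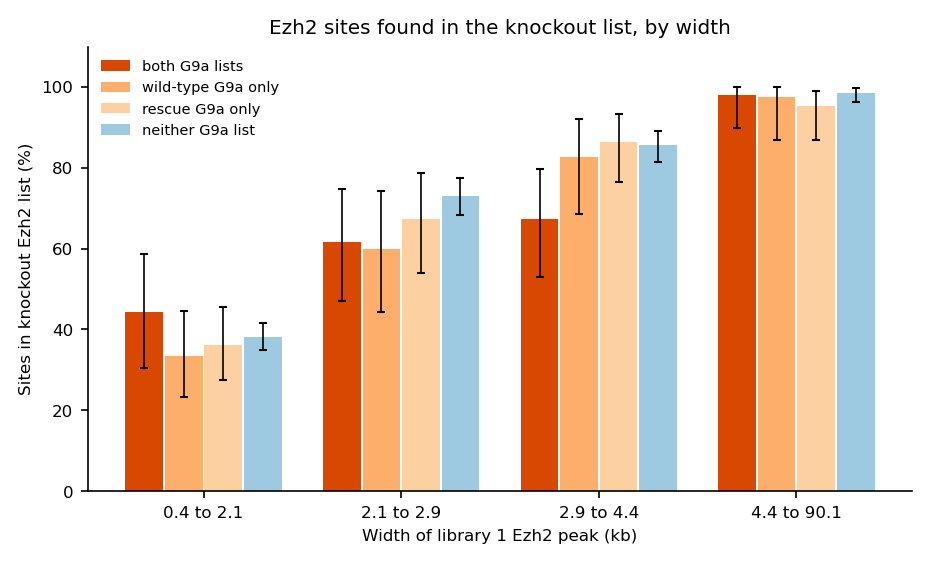
Share of sites in the knockout Ezh2 list (y axis, %) by width of the library 1 peak in kb (x axis, 4 groups) and by G9a lists held; error bars are exact binomial 95% intervals over sites. The share rose with width for every kind of site, and sites with both G9a lists stood lowest at 67.3% from 2883 to 4372 bp and highest at 44.2% in the narrowest group.

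Ezh2 scores and coverage were lower at the 209 sites than at sites of equal width without G9a. The median of the highest library 0 score was 148.3 against 198.3, and library 0 peaks covered a median of 38.5% of the site against 45.1%. Library 1 scores had medians of 892.8 and 977.9. Where the knockout was called, its highest score had a median of 116.2 against 141.4 and its peaks covered 30.4% against 35.9% of the site. Library 0 scores and coverage were also lower at sites with 1 list only. With wild-type G9a only the medians were 119.2 against 158.6 and 38.1% against 44.0%. With rescue G9a only they were 133.9 against 169.8 and 41.9% against 43.9%. Library 1 scores were lower with wild-type G9a only (550.7 against 755.2) and not with rescue G9a only (827 against 807.2). The lower library 0 values were thus not shown to belong to sites with both lists. When sites were matched on library 0 score as well as width, the difference in knockout share was -4.75 points, with an interval of the members' share from -11.6 to 1.60. That setting also used wider bins of width. Matching on library 1 score in the same bins of width gave -5.75 points. The part of the lower Ezh2 scores in the lower knockout share was not tested.

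Sites in the knockout list were wider and scored higher for Ezh2 than those outside it, while their median G9a scores were close. The 142 sites in the list had a median width of 3565 bp and a median highest library 0 score of 256.81, against 2172 bp and 69.1 for the 67 others. Of the sites at or above the median library 0 score, 93 of 105 were in the list, and of those below it 49 of 104. The highest wild-type G9a score had medians of 39.57 and 43.1, and the highest rescue score 47.02 and 42.44, in and out of the list. The lists of G9a shared a place in 78.9% of sites in the knockout list and in 85.1% of the others, with intervals that overlapped (71.2 to 85.3 and 74.3 to 92.6). Wild-type G9a peaks were centred in the inner zone in 38.6% of cases (31.0 to 46.7) in the first and 50.7% (38.4 to 63.0) in the second. Rescue G9a gave 39.3% (32.2 to 46.8) and 43.9% (31.7 to 56.7).

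Some sites of high Ezh2 score were missing from the knockout list, and G9a lay in either zone at those named. The highest was chr3:17684836-17689625, with Ezh2 scores of 2602.1 in library 1 and 293.77 in library 0, and G9a peaks (wild-type score 24.0, rescue score 28.63) more than 2 kb inside the edge. At chr1:148343525-148346407 the Ezh2 scores were 1430.93 and 85.18, and wild-type and rescue G9a peaks of 40.23 and 73.85 lay near the middle. At chr12:56698736-56702518 the Ezh2 scores were 1222.39 and 172.8, and strong G9a peaks of 398.36 and 386.71 overlapped each other. At chr1:125940420-125943816 (Ezh2 1443.54 and 166.96) and chr1:134084877-134089063 (1252.8 and 138.52) the G9a peaks lay nearer 1 edge, with wild-type scores of 103.46 and 90.39 and rescue scores of 39.97 and 112.66. In these 5 sites the lists shared a place, and the strongest peak was in the inner zone in 3 for wild-type G9a and in 2 for rescue G9a. They were named for their library 1 scores, and library 0 scores at these sites reached at most 293.77.

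The 5 widest sites were all in the knockout list, and G9a lay at the middle of some and at the edge of others. Of the 279 sites with neither G9a list from 4372 bp upward, 98.6% were in the knockout list too. The widest, chr11:96129021-96219132, was a single library 1 peak of 90112 bp, covered over 60348 bp by library 0 and 58848 bp by knockout Ezh2 peaks. Its library 1 Ezh2 score was 73.19, under the median of 888.26 over the 209 sites. Its strongest wild-type (53.33) and rescue (41.09) G9a peaks overlapped each other near its middle. At chr11:11919090-11936982 the G9a scores were 114.33 and 275.34, with 4 G9a peaks of each list inside 17893 bp. The library 1 Ezh2 score was 382.37 there and 3100.0 at the narrower sites of the 5. At chr9:69604903-69618541 (13639 bp) the G9a scores were 25.59 and 42.4, and at chr7:86643751-86657300 (13550 bp) they were 62.33 and 105.55, the latter pair at 1 edge. The remaining one is the first-ranked site described above, and the lists shared a place in all 5.

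The surroundings of the 209 sites held fewer other Ezh2 peaks than those of equal-width sites without G9a. Peaks were counted from 1 to 50 kb on either side of a site. Library 1 Ezh2 peaks numbered a mean of 2.40 per site against 3.21, library 0 peaks 2.03 against 3.10 and knockout peaks 2.02 against 2.99. No library 0 peak was found there at 65.4% of the 208 sites and at 53.4% of those without G9a. Wild-type G9a peaks numbered 3.92 against 3.80 and rescue G9a peaks 4.97 against 3.77. Around sites with rescue G9a only, rescue G9a peaks numbered 6.35 against 3.83, so their higher number was not particular to the 209 sites. Around sites with wild-type G9a only they numbered 3.51 against 3.85. Sites with wild-type G9a only and with rescue G9a only also had fewer library 1 Ezh2 peaks around them (2.35 and 2.46 against 3.05 and 3.12), so this too was not shown to belong to sites with both lists.

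The rescue list has few peaks on chromosomes 1 and 8 (3616 of its 83433 on chromosomes 1 to 19, against 13412 of 67077 in the wild-type list), which limits where both lists can meet. Of the reproducible sites with wild-type G9a, 25 of 77 on chromosomes 1 and 8 (32.5%) also held rescue G9a, against 184 of 346 (53.2%) on the others. The share was 37.5% on chromosome 1 and 24.1% on chromosome 8. Among the others it ran from 36.4% on chromosome 5 to 85.7% on chromosome 14. Chromosome 5 held more rescue than wild-type G9a peaks (5043 against 4138). The part of peak number in this share was not tested. The 209 sites were most numerous where reproducible sites were, with 23 of 234 on chromosome 2, 21 of 216 on chromosome 11 and 18 of 193 on chromosome 1. Chromosomes 14 (12 of 85) and 18 (15 of 118) held more in proportion. Without chromosomes 1 and 8, the knockout share was 69.6% and the inner share of wild-type G9a 41.1%. The difference from equal-width sites became -4.14 points there, and rescue G9a peaks in the surroundings numbered 5.44 against 4.29.

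A few sites stood close to the limits of the rule. The least overlap was at chr5:27375282-27376907, where a rescue peak reached 1 bp into the site and the wild-type overlap was 602 bp. At chr10:102830132-102830954 the rescue overlap was 15 bp, and at chr18:58995301-58998311 the wild-type overlap was 32 bp. Just outside, chr11:82742219-82745882 missed a rescue peak by 24 bp, chr9:64232879-64235551 a wild-type peak by 29 bp and chr13:108435058-108436534 a rescue peak by 33 bp.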

How the data were processed

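ChIP-seq peak lists of 5 libraries were analysed; the 3 input libraries were not analysed here. Per the submitters' processing notes, Bowtie 0.12.7, MACS 1.4 and mm9 were used. The deposited lists, 1 per library, give each peak's position and a score, in MACS usually -10 log10 of its p-value. The sources used here do not give the threshold applied. Lowest scores were 30 and 43.02 for wild-type Ezh2 libraries 1 and 0, 43.03 for knockout Ezh2 and 20 for both G9a lists. Cells were fixed with 1% formaldehyde for 10 min, after 45 min of 2 mM DSG for G9a, per the labels' protocols. The title was followed for the knockout Ezh2 library, whose source name gives the cell line alone. Whether the pair of wild-type Ezh2 libraries are separate cultures is not given in the labels.

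Positions are printed 1-based. Overlap meant at least 1 bp. Sites with neither G9a list were reweighted to the members over bins of 0.25 of log2 width. Named sites were the first by Ezh2 rank, G9a score, width, library 1 score outside the knockout list, and nearness to the rule's limits. The members, groups and measures were chosen with earlier results of these data known. Computations used Python 3.11.15, numpy 2.4.6, scipy 1.17.1 and matplotlib 3.10.9, and were tested on simulated data.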

Additional observations from a re-analysis of the deposited data

How the results depend on the processing

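No paired analysis was possible because the groups share fewer than 2 library numbers. The difference in knockout share from equal-width sites was below 0 in all 11 alternatives (-7.18 to -2.47 points). The inner share of wild-type G9a was under 50% in 9 of 10, but in 4 of these 9 the interval held 50% (scores of at least 50 in every list, G9a scores of at least 50, without library 1, and the strongest peak per site). Matching on library 0 score, sites at least 2 kb wide, the strongest peak per site, the rescue list in place of the wild type, and sites where the G9a lists share a place were settings chosen after seeing the data. With overlap of at least 50% of the shorter peak, 74.7% of sites shared a place and 44.5% of wild-type G9a peaks lay on library 0 Ezh2. With scores of at least 50 in every list, 53 sites were left, with a median width of 3590.0 bp, and 98.1% shared a place. With G9a scores of at least 50, 62 were left, 98.4% shared a place and 61.5% of G9a peaks lay on library 0 Ezh2. When 1 wild-type Ezh2 library was left out at a time, there were 103 to 718 sites, 25.2% to 50.5% in the knockout list, an inner share of 39.5% to 53.6%, 91.4% to 96.1% sharing a place and a median width of 532 to 960 bp. Without library 0, 18.3% of wild-type G9a peaks lay on its peaks. Fewer or other peaks entered in these settings, and the cause was not otherwise tested. Score floors differ between lists, and no read counts were used.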

Other observations

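Where G9a was called in 1 list only, rescue peaks were centred in the outer part of the Ezh2 site more often than wild-type peaks. At the 214 sites with wild-type G9a only, 99 peaks were centred in the inner zone and 100 in the outer zone (49.7% inner; exact binomial interval 42.6 to 56.9). At the 318 sites with rescue G9a only, the counts were 121 and 209 (36.7%; 31.5 to 42.1). At the sites with both lists the shares were 42.3% for wild-type and 40.6% for rescue G9a. Library 0 Ezh2 peaks had an inner share of 65.5% to 69.1% in all 4 kinds of site. The difference between the lists was not tested.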
